A study of Homo sapiens with 6 samples.

Results

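The genes of the spliceosome, the machine that removes introns from pre-mRNA, were examined in the thyroid cancer cell line KHM-5M. Members were the genes that the deposited table assigns to the KEGG spliceosome pathway, leaving out the 6 heat shock genes whose symbols start with HSPA. This gave 150 genes of the 17687 in the table, and 144 of them passed the filter on low counts. The 18 small SNRP and LSM proteins, 12 SR proteins, 7 HNRNP proteins and 29 large factors were compared as groups. A further 59 members belong to other splicing complexes, and 25 members are genes that the fixed class lists do not hold.

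The study asked how KHM-5M cells respond to sodium selenite (SS), and whether N-acetylcysteine (NAC), a thiol antioxidant, alters that response. RNA was sequenced from 3 groups of 2 libraries each: control cells, cells that received SS, and cells that received NAC together with SS (SS+NAC). All libraries came from this 1 cell line, which the study describes as BRAF wild type, and no group received NAC alone. The labels state no concentration or treatment time for these libraries, although the sample titles call control SS0 and selenite SS5, without a unit. The methods call the pairs biological replicates. The p-values measure the spread within these pairs. Each library held 17645545 to 23810056 expected counts. PAX8, a thyroid lineage factor, lay at 104 to 134 TPM, a read density scaled for transcript length and library total, and the keratin KRT8 at 977 to 1398 TPM. The thyroid marker TG, the iodide transporter SLC5A5 and NKX2-1 stayed below 1 TPM, and FOXE1 lay at 0.55 to 1.59. KRT18, another keratin, lay at 731 to 1099 TPM, but the epithelial markers EPCAM and CDH1 only at 3.85 to 6.07 and 0.14 to 0.29. The mesenchymal markers VIM and FN1 lay at 5743.5 to 6621 and 661 to 1810 TPM.

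In the spliceosome, small nuclear RNAs are packed by a ring of Sm proteins (SNRPB, SNRPD1 to SNRPD3, SNRPE to SNRPG) or, on U6, by the LSM ring. U1 reads the start of the intron and U2 the branch point, after which the U4/U6.U5 tri-snRNP joins and RNA helicases rearrange the complex through the steps of splicing. SR proteins mostly promote the use of exons to which they bind, and HNRNP proteins coat nascent RNA and often oppose them. The large scaffold and helicase proteins, such as PRPF8, SNRNP200 and SF3B1, hold or remodel the catalytic core.

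On TMM-scaled counts, 63 of 144 members were higher and 15 lower in SS than in control cells at an adjusted p of 0.05 or less (edgeR quasi-likelihood test, Benjamini-Hochberg over 14005 genes). Of all tested genes, 18.6% were higher and 21.4% lower. On the log2(TPM + 1) scale, where the median of all genes was -0.20, 23 members were higher and 48 lower by limma. Of all tested genes, 5.08% were higher and 37.4% lower on that scale. The median of the members there was -0.09, or 0.11 above that of all tested genes. With TMM scaling the median log2 fold change of the members was 0.19, against 0.00 for all tested genes. The count of higher members was 32 without control replicate 1 and 30 without SS replicate 2. The count of lower members was 6 without control replicate 1, without SS replicate 1 or without SS replicate 2, and 7 without control replicate 2.

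These changes ran with transcript length, which the small and large groups do not share. The median effective length was 1150 bases in the small SNRP and LSM group, 2333 in the SR proteins, 2509 in the HNRNP proteins and 4132 in the large factors. Over the 144 members, which are not independent replicates and share the same libraries, Spearman's rho between length and log2 fold change was -0.76. It was -0.68 over all tested genes. With a lowess offset that takes the length trend out of each library, 19 members were higher and 2 lower, against 4.19% and 5.03% of all tested genes. The offset counts of higher members were 3 without control replicate 1, 4 without control replicate 2 or without SS replicate 2, 8 without SS replicate 1 and 29 without either SS+NAC library. Length and class cannot be told apart for most members, so the values with this length offset stand beside those without it.

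**Figure D1:**
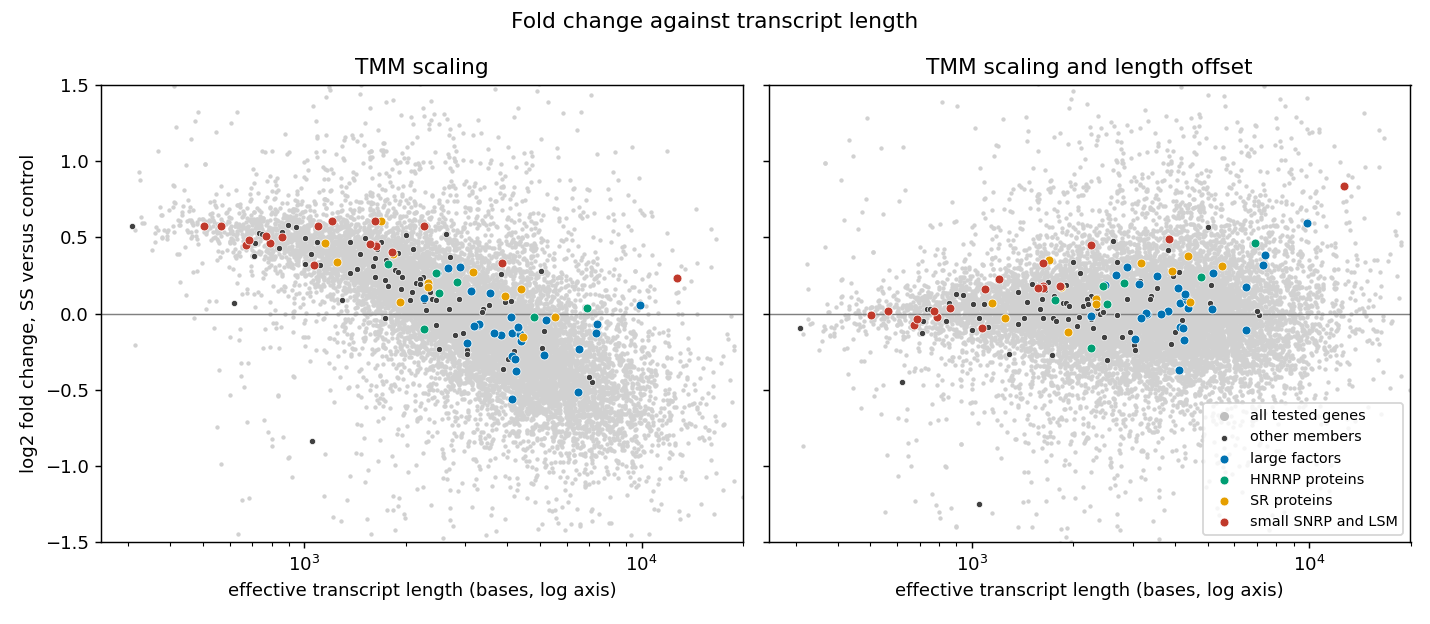
Log2 fold change of SS against control (vertical axis) by effective transcript length in bases (log axis), with TMM scaling alone on the left and with the length offset on the right. Each point is 1 gene, grey for all tested genes and coloured by group for the members, and genes beyond the axis limits are not drawn. The small SNRP and LSM proteins sit high at the short end on the left, with a median of 0.47, and at a median of 0.17 on the right.

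The small SNRP and LSM proteins were higher in SS, and 17 of 18 were called. Their median log2 fold change was 0.47, with a range of 0.24 to 0.60, and in each of the 18 the SS libraries did not overlap the controls and stood above them. Among all tested genes, SS stood wholly above control in 36.3% and wholly below in 36.9%. With the length offset the median was 0.17 and 4 were called. The 2009 tested genes within the middle range of lengths of this group had a median of 0.39, and 62.0% of them were higher. Between 11 and 18 of the 18 were called when a library was left out, with 11 without SS replicate 2 and 13 without control replicate 1. On the log2(TPM + 1) scale, on which the median of all genes shifted by -0.20, the group's median was 0.20, or 0.39 above that shift, and 10 were higher by limma, against 5.08% of all tested genes.

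All 7 Sm core genes were higher in SS, between 0.33 for SNRPD3 and 0.57 for SNRPB and SNRPG. Of all tested genes 18.6% were higher, and of those in the middle range of this class's lengths 62.8%. With the length offset 1 of the 7 was called. SNRPG, a subunit of the Sm ring, lies on chromosome 2 (GRCh38, 70281362 to 70293771, minus strand in GENCODE 29). Its TMM-scaled counts, as CPM (relative to the library total), were 76.3 and 78.7 in control, 107 and 123 in SS, and 76.5 and 67.7 in SS+NAC. The SS libraries stood above the other 4, and the log2 fold change against control was 0.57 (SE 0.0908, adjusted p = 0.000965). With the length offset it was 0.01 (adjusted p = 0.917), at an effective length of 565 bases. SNRPB, the Sm protein with the highest level per length, had 499 and 542 CPM in control, 700 and 848 in SS, and 554 and 453 in SS+NAC. Its SS libraries again did not overlap the others, and the change was 0.57 (SE 0.117, adjusted p = 0.00338), or 0.16 (adjusted p = 0.295) with the offset. SNRPD3 showed the other pattern: a transcript of 3847 bases and a change of 0.33 (SE 0.0902, adjusted p = 0.0142) that grew to 0.49 with the offset (adjusted p = 0.00943). The deposited interval of SNRPD3 (24528109 to 24666452) is wider than the GENCODE 29 gene (24555503 to 24609980). SNRPD3 had 223 and 222 CPM in control, 258 and 302 in SS, and 207 and 188 in SS+NAC. Its call without the offset was lost without control replicate 1 (adjusted p = 0.0896), control replicate 2 (0.0615) or SS replicate 2 (0.146).

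In the LSM ring, 6 of 7 genes were higher, against 18.6% of all tested genes and 50.3% of those in the middle range of its lengths. With the length offset 2 were called, LSM8 and LSM5. LSM7, the shortest at 502 bases, had 60.4 and 71.4 CPM in control, 90.0 and 107 in SS, and 65.7 and 51.0 in SS+NAC. Both SS libraries were the highest, with a change of 0.58 (SE 0.129, adjusted p = 0.00549) that was -0.01 with the offset (adjusted p = 0.974). Without SS replicate 2 or control replicate 1 the adjusted p of LSM7 was 0.062 or 0.0537. LSM5 had 36.1 and 32.6 CPM in control, 50.1 and 52.1 in SS, and 32.6 and 35.1 in SS+NAC. It kept a similar size on both scales, 0.57 (SE 0.0835, adjusted p = 0.000636) and 0.45 with the offset (adjusted p = 0.00844), at 2258 bases. The other 4 genes with a call, LSM2, LSM3, LSM4 and LSM6, changed by 0.41 to 0.50, and by -0.07 to 0.18 with the offset.

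LSM8, the subunit that sets the nuclear U6 ring apart from the cytoplasmic one, was the exception in the small group. Its effective length of 12723 bases was the longest of all 144 tested members, and its level per length was the lowest of the group at 4.75 TPM ± 0.0778 (SD, n = 2) in control. The deposited interval of LSM8 (118184032 to 118204039) is wider than the GENCODE gene (118184032 to 118192824). Even with its introns, that GENCODE gene is shorter than the effective length. The level per length and the offset value of LSM8 therefore rest on an uncertain length. The counts were 30.0 and 31.4 CPM in control, 34.6 and 37.9 in SS, and 31.6 and 36.1 in SS+NAC. SS lay above control but overlapped SS+NAC. The change of 0.24 (SE 0.0922) had an adjusted p of 0.063, and it was 0.84 (adjusted p = 0.00116) with the length offset. On the log2(TPM + 1) scale it was -0.04 (adjusted p = 0.849), which lies above the shift of -0.20 of all genes on that scale. It passed the test without SS+NAC replicate 1 (adjusted p = 0.0253) or without SS+NAC replicate 2 (adjusted p = 0.027).

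The remaining small proteins are parts of U1 and U2, and all 4 were higher. Of all tested genes 18.6% were higher, and of those in the middle range of this class's lengths 55.8%. With the length offset 1 of the 4 was called, SNRPA. SNRPC, which helps U1 to hold the 5′ splice site, had 186 and 203 CPM in control, 279 and 314 in SS, and 205 and 184 in SS+NAC. Only the SS libraries were above 250 CPM, and the change was 0.60 (SE 0.0895, adjusted p = 0.000695), or 0.22 (adjusted p = 0.0819) with the offset. SNRPA, the U1 protein that binds a stem-loop of its RNA, rose by 0.60 (SE 0.0999, adjusted p = 0.00118), and by 0.33 with the offset (adjusted p = 0.045). Its counts were 131 and 142 CPM in control, 199 and 216 in SS, and 168 and 137 in SS+NAC. The U2 proteins SNRPB2 and SNRPA1 changed by 0.45 and 0.32, and neither was called with the offset.

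**Figure D2:**
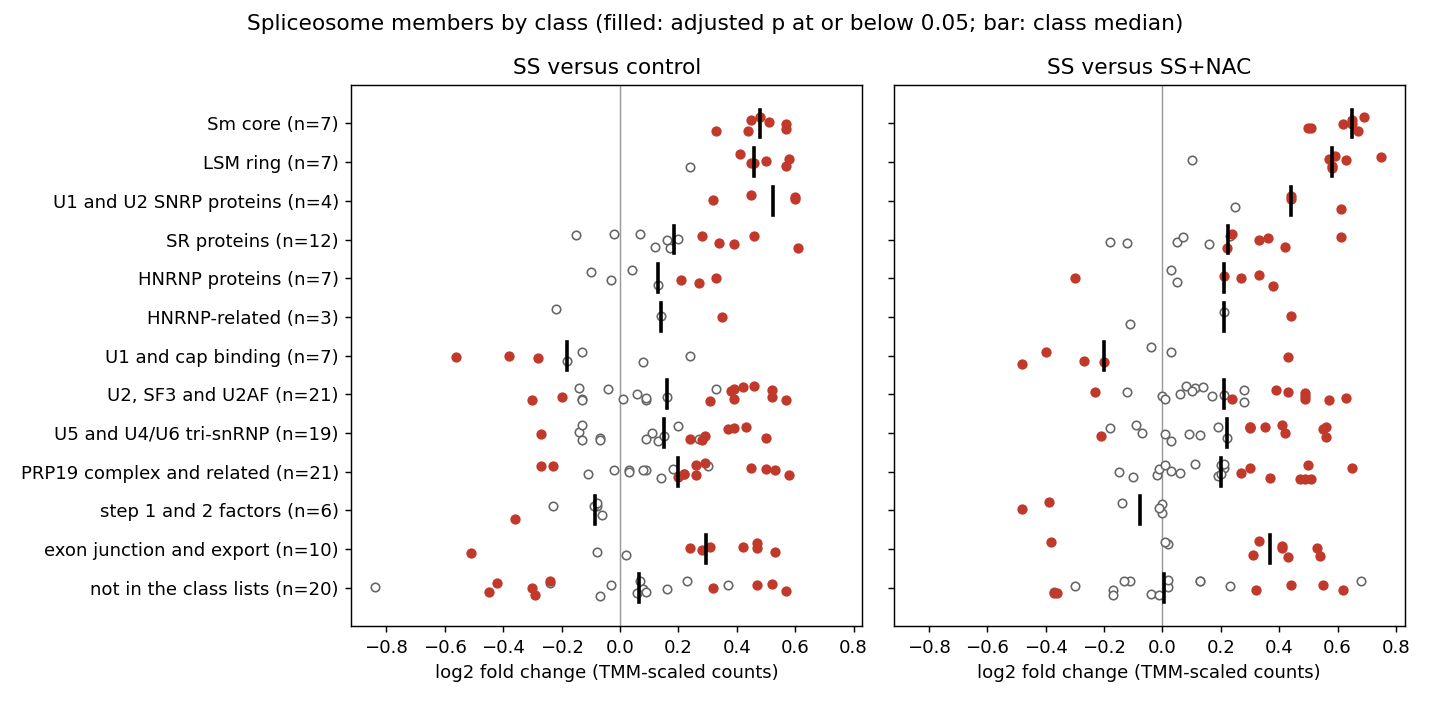
Log2 fold change on TMM-scaled counts (horizontal axis) of the 144 tested members, 1 point each, by class, for SS against control on the left and SS against SS+NAC on the right. Filled points have an adjusted p of 0.05 or less and bars are class medians. The Sm core, LSM ring and U1 and U2 SNRP classes lie to the right in both panels, while U1 and cap binding has a median of -0.18 on the left.

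Promoter sequence was not used to choose the members, and 5 motifs were counted in their promoters. In the RefSeq promoters of 300 bases (250 before to 50 after the start, GRCh38.p14, the first listed for each gene), 125 members were matched. The letters CCGGAAG, which hold the GGAA core known from ETS factors, were searched on both strands and found in 43.2% of these 125. They were found in 18.4% of the promoters of tested genes and 10.7% of all 27305 promoters. The motif was in 9 of 16 promoters of the small group and 13 of 23 of the large factors, 2 of 10 of the SR proteins and 0 of 6 of the HNRNP proteins. GGGCGG, an SP1-like motif, was in 80 of the 125 members and 7507 of the 10885 promoters of tested genes, TATAAA in 9.60% against 5.74% and AAGATGGCG (as for YY1) in 7.20% against 3.74%. AAGATGGCG was in 5 of 23 promoters of the large factors, 1 of 16 of the small group, 0 of 10 of the SR proteins and 0 of 6 of the HNRNP proteins. The NRF1 palindrome was in 2.40% against 2.18%. These searches also used both strands, and no motif contains another.

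The stretches of 4 promoters upstream of their gene's GENCODE 29 start show CCGGAAG in a pair of small proteins and a pair of large factors. They lie at chr6:34757255-34757405 (plus strand) for SNRPC, chr7:118183914-118184031 (plus) for LSM8, chr2:96305547-96305796 (minus) for SNRNP200 and chr5:134758529-134758770 (plus) for DDX46, in GRCh38.p14. The deposited table gives SNRPC, SNRNP200 and DDX46 wider intervals (34718544 to 34779197, 96274180 to 96322070 and 134758126 to 134903599), which hold these stretches, while that of LSM8 starts after its stretch. Each is written 5′ to 3′ on the strand of its gene, and capitals mark CCGGAAG or its reverse complement. In SNRPC both forms overlap, and the first starts 214 bases before the RefSeq start. SNRPC was called higher in SS and the other 3 were not called, LSM8 at 0.24, SNRNP200 at -0.13 and DDX46 at -0.13. With the length offset LSM8 (0.84) and SNRNP200 (0.32) were called higher and SNRPC was not called, while DDX46 (0.09) stayed without a call.
SNRPC: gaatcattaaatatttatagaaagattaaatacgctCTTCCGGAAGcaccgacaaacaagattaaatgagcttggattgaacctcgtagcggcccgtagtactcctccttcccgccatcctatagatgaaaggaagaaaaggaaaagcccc
LSM8: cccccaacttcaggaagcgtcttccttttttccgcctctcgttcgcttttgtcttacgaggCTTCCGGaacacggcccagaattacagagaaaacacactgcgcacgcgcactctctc
SNRNP200: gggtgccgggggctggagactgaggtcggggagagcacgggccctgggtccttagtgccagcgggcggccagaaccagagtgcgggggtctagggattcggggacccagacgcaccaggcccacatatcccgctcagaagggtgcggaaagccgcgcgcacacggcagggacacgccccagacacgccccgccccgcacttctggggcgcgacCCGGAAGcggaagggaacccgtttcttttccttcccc
DDX46: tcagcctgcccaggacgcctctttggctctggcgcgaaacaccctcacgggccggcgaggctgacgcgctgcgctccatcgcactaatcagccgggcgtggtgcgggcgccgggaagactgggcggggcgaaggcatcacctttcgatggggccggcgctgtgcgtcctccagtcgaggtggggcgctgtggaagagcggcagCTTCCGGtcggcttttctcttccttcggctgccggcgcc

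Among the SR proteins, 5 of 12 were higher and 0 lower, against 18.6% and 21.4% of all tested genes and 12% and 9.63% of those of like length (within the middle range of the group). Their median was 0.19 with TMM scaling and 0.13 with the length offset, but -0.08 on the log2(TPM + 1) scale, which is 0.11 above the shift of all genes there. On that scale 2 were higher and 2 lower by limma, against 5.08% and 37.4% of all tested genes. With TMM scaling fewer were called without control replicate 1, control replicate 2 or SS replicate 2. The median ranged from 0.17 to 0.24 when a library was left out. SRSF5, a shuttling splicing activator, had 149 and 140 CPM in control, 237 and 203 in SS, and 157 and 173 in SS+NAC. The SS libraries were the highest and SS+NAC lay above control without overlap. SRSF5 had the largest change of the SR proteins, 0.61 (SE 0.0927, adjusted p = 0.000805), and 0.35 (adjusted p = 0.0557) with the offset. SRSF9 had 151 and 169 CPM in control, 213 and 228 in SS, and 150 and 140 in SS+NAC. The SS libraries stood apart, with a change of 0.46 (SE 0.0823, adjusted p = 0.00172) and 0.07 (adjusted p = 0.596) with the offset. SRSF2, SRSF7 and SRSF3 were the other called SR proteins, at 0.39, 0.34 and 0.28. The table places MFSD11 over SRSF2, so reads of these overlapping genes may be split between them.

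SRSF1, the founding SR protein, with 5521 bases, had 471 and 450 CPM in control, 475 and 433 in SS, and 418 and 457 in SS+NAC. The 3 groups overlapped, at -0.02 (SE 0.0831, adjusted p = 0.874), and the value was 0.31 (adjusted p = 0.0186) with the offset and -0.30 (adjusted p = 0.0403) on the log2(TPM + 1) scale. With the offset, SRSF1, SRSF3, SRSF6 and SRSF8 were the SR proteins called, of which SRSF3 was also called without it. TRA2A, a splicing activator, had 67.7 and 71.0 CPM in control, 73.9 and 72.2 in SS, and 80.4 and 85.2 in SS+NAC. SS+NAC was the highest group, but TRA2A was not called in SS+NAC against control (0.26, adjusted p = 0.118). TRA2B lay at 0.17 (adjusted p = 0.0868) and SRSF10 at -0.15 (adjusted p = 0.201) in SS against control.

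Of the 7 HNRNP proteins, 3 were higher and 0 lower, HNRNPA1, HNRNPC and HNRNPK, against 18.6% and 21.4% of all tested genes and 7.17% and 11.1% of those of like length. The group's median was 0.13, 0.18 with the length offset and -0.14 on the log2(TPM + 1) scale, which is 0.06 above the shift of all genes. On that scale 0 were higher and 3 lower by limma, against 5.08% and 37.4% of all tested genes. HNRNPA1, the member with the highest level per length (1662 TPM ± 37.1 in control, SD, n = 2), had 1489 and 1476 CPM in control, 1895 and 1821 in SS, and 1568 and 1636 in SS+NAC. The groups did not overlap, with SS highest and control lowest. The change was 0.33 (SE 0.0785, adjusted p = 0.00794), and 0.09 (adjusted p = 0.446) with the offset. HNRNPC, which binds uridine tracts, rose by 0.27 (SE 0.0748, adjusted p = 0.0166), with 0.18 (adjusted p = 0.0945) under the offset, and its adjusted p was 0.0825 without SS replicate 2. Without control replicate 1 or control replicate 2, 0 of the 7 were called. HNRNPA1L2 is a near copy of HNRNPA1, so its level of 14.0 to 18.6 CPM and that of HNRNPA1 depend on how shared reads were assigned.

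HNRNPU, a long transcript of 6903 bases for a nuclear scaffold protein, had 614 and 626 CPM in control, 626 and 649 in SS, and 631 and 599 in SS+NAC. Its groups were close, with 0.04 (SE 0.0753, adjusted p = 0.709), while the value was 0.47 (adjusted p = 0.00424) with the offset and -0.24 on the log2(TPM + 1) scale. HNRNPA3 changed in the same way, from -0.03 (adjusted p = 0.82) to 0.24 (adjusted p = 0.0439) with the offset. PCBP1, a poly(C)-binding protein related to HNRNPK, rose by 0.35 (SE 0.081, adjusted p = 0.00622), and its offset value was 0.11 (adjusted p = 0.361). Without control replicate 1 the adjusted p of PCBP1 was 0.0947.

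**Figure D3:**
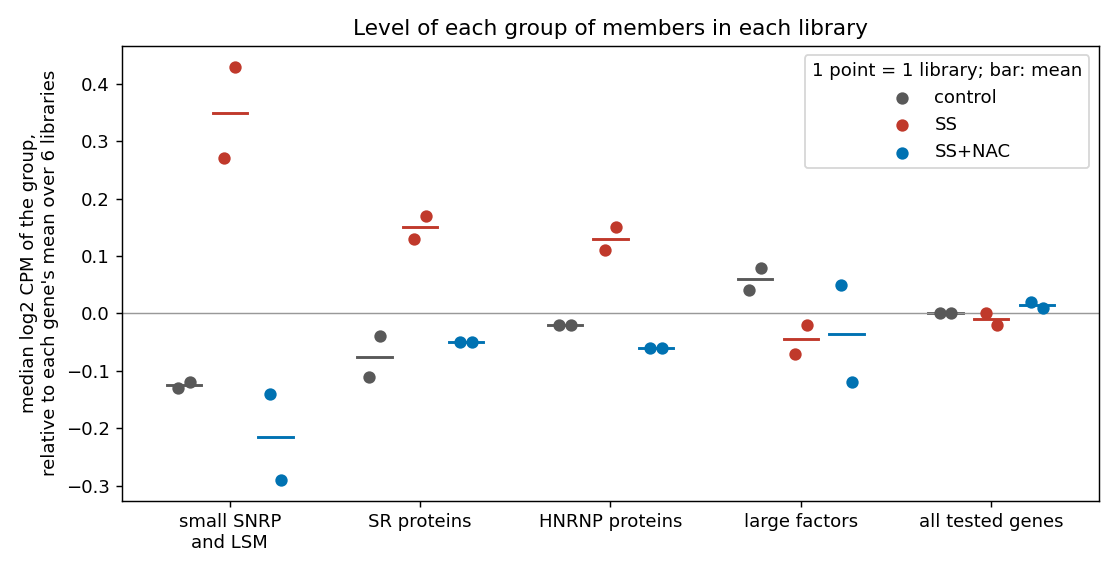
Median log2 CPM of each group of members in each library, relative to each gene's mean over the 6 libraries (vertical axis). Points are libraries and bars are means of 2. The small SNRP and LSM points of SS, 0.27 and 0.43, lie above those of control (-0.13 and -0.12) and SS+NAC (-0.14 and -0.29), and the large factors of SS lie at -0.07 and -0.02.

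Of the 29 large factors, 8 were lower (27.6%) and 1 higher (3.45%), shares near those of genes of like length, 24.9% and 3.46%, and against 21.4% and 18.6% of all tested genes. The median was -0.09, and -0.35 on the log2(TPM + 1) scale, but 0.07 with the length offset, so the direction of this group depended on the length correction. The 2399 tested genes in the middle range of its lengths had a median of -0.14. On the log2(TPM + 1) scale 0 of the 29 large factors were higher and 21 lower by limma, against 5.08% and 37.4% of all tested genes. With the offset 4 of the 29 were higher (SF3B2, SF3B3, PRPF8 and SNRNP200) and 1 lower. When a library was left out, 3 to 9 were lower, with 4 without control replicate 1, without SS replicate 1 or without SS replicate 2, and 3 without control replicate 2. In each library the median of the small group minus that of the large factors was -0.17 and -0.20 in control, 0.34 and 0.45 in SS, and -0.19 and -0.17 in SS+NAC.

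THOC2, the largest subunit of the THO mRNA export complex (chromosome X, 123600561 to 123733056 in GRCh38), had 96.7 and 95.3 CPM in control, 66.9 and 67.7 in SS, and 85.8 and 89.8 in SS+NAC. The groups did not overlap, with SS+NAC between the others. THOC2 fell by 0.51 on the log2 scale (SE 0.0703, adjusted p = 0.000504), with -0.11 (adjusted p = 0.334) under the offset.

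SF3B1, the U2 subunit that clamps the branch point, had 232 and 229 CPM in control, 185 and 191 in SS, and 215 and 225 in SS+NAC. SS was again the lowest group, at -0.30 (SE 0.0716, adjusted p = 0.00794), and -0.09 (adjusted p = 0.4) with the offset. Its adjusted p was 0.0854 without control replicate 1 and 0.0893 without control replicate 2. AQR, an intron-binding helicase, lay at -0.27 (SE 0.0777, adjusted p = 0.0182). With the offset AQR was at 0.03 (adjusted p = 0.858). AQR was not called without SS replicate 1 (adjusted p = 0.0739), SS replicate 2 (0.0853) or control replicate 2 (0.307).

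The U5 core was not called. PRPF8, the scaffold of the active site, had 628 and 705 CPM in control, 610 and 664 in SS, and 669 and 576 in SS+NAC. These groups overlapped, at -0.07 (SE 0.0975, adjusted p = 0.623), with 0.38 (adjusted p = 0.0422) under the offset and -0.34 (adjusted p = 0.00445) on the log2(TPM + 1) scale. SNRNP200, the helicase that unwinds U4 from U6, lay at -0.13 (SE 0.0777, adjusted p = 0.21), at 0.32 (adjusted p = 0.0347) with the offset and at -0.40 (adjusted p = 0.00238) on that scale. EFTUD2, the U5 GTPase, lay at 0.13 (SE 0.0946, adjusted p = 0.292), 0.25 (adjusted p = 0.131) and -0.16. The median of all genes on the log2(TPM + 1) scale was -0.20, so EFTUD2 lay above it there, and PRPF8 and SNRNP200 below it.

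**Figure D4:**
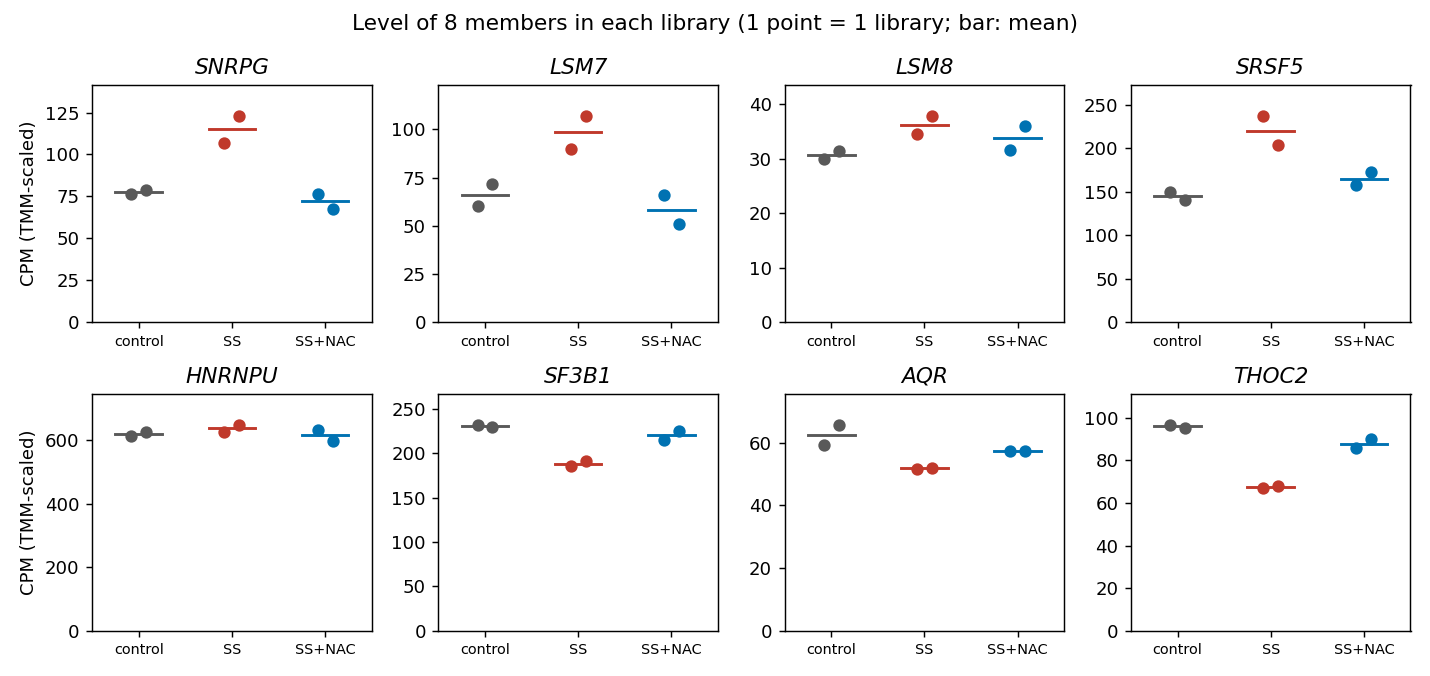
CPM on TMM-scaled counts (vertical axes, from 0) of 8 members in the 6 libraries, with 1 point per library and bars at the means of 2. SNRPG, LSM7 and SRSF5 are highest in SS, and SF3B1, AQR and THOC2 lowest, while HNRNPU stays between 599 and 649 in all 6.

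In the other classes the counts without the offset are to be read against the 18.6% higher and 21.4% lower of all tested genes, and those with it against 4.19% and 5.03%. In U2, SF3 and U2AF, 9 of 21 members were higher and 2 lower, or 2 and 0 with the offset. U2AF1, which reads the AG at the 3′ splice site, had 173 and 174 CPM in control, 253 and 262 in SS, and 189 and 177 in SS+NAC. SS was the highest group, at 0.57 (SE 0.0729, adjusted p = 0.000379), and 0.12 (adjusted p = 0.273) with the offset. Its near copy U2AF1L5 varied from 5.61 to 17.1 CPM within control alone, so the split of their reads is uncertain. Within the SF3B complex SF3B6, which touches the branch point, rose by 0.52 (SE 0.0762, adjusted p = 0.000647) at 749 bases while SF3B1 fell at 4215 bases. With the offset SF3B6 was at 0.03 (adjusted p = 0.875). SF3B2 was called higher on both scales, at 0.31 with either, but not on the log2(TPM + 1) scale, where no large factor was called higher. DHX15, a helicase that takes spliceosomes apart, fell by 0.20 on the log2 scale (adjusted p = 0.0443), a call lost when any of the control or SS libraries was left out (adjusted p 0.126 to 0.259).

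In the U5 and U4/U6 tri-snRNP class 7 of 19 were higher and 1 lower, or 2 and 0 with the offset, the 2 being PRPF8 and SNRNP200. SNU13, which binds the U4 kink-turn, had 145 and 155 CPM in control, 203 and 220 in SS, and 149 and 140 in SS+NAC, and rose by 0.50 (SE 0.0781, adjusted p = 0.000912). PPIH, a cyclophilin of the U4/U6 particle, rose by 0.43 (SE 0.103, adjusted p = 0.00779), though not without SS replicate 2 (adjusted p = 0.0858). PRPF38B was the member that fell, at -0.27 (SE 0.0736, adjusted p = 0.0154). With the offset SNU13 was at 0.20 (adjusted p = 0.0968), PPIH at -0.05 (0.759) and PRPF38B at -0.24 (0.0625), so PRPF38B lost its call with little change in size. The call of PRPF38B was lost without any of the control or SS libraries (adjusted p 0.0568 to 0.156).

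In the PRP19 and related class, whose proteins stabilise the catalytic form, 10 of 21 were higher and 2 lower, or 2 and 0 with the offset. CCDC12 had 25.8 and 25.7 CPM in control, 37.9 and 39.4 in SS, and 29.7 and 24.6 in SS+NAC, and rose by 0.58 (SE 0.098, adjusted p = 0.00127). PQBP1, a polyglutamine-binding protein, rose by 0.53 (SE 0.116, adjusted p = 0.00478). Beside AQR, the scaffold CDC5L fell by 0.23 on the log2 scale (SE 0.0738, adjusted p = 0.0302), a call lost without any of the control or SS libraries (adjusted p 0.0674 to 0.25). With the offset CCDC12 was at 0.13, PQBP1 at 0.07 and CDC5L at 0.18, and none of the 3 was called. ISY1 was called on both scales, at 0.26 and 0.41, but it overlaps the read-through gene ISY1-RAB43.

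The exon junction and export class had 7 of 10 higher and 1 lower, the latter being THOC2, or 1 and 0 with the offset. MAGOH, a core subunit of the exon junction complex, had 41.3 and 37.4 CPM in control, 56.8 and 56.4 in SS, and 40.3 and 44.9 in SS+NAC. It rose by 0.53 (SE 0.0852, adjusted p = 0.00105), and its paralog MAGOHB by 0.24 (adjusted p = 0.0328). RBM8A, the partner of MAGOH, was called on both scales, at 0.28 (adjusted p = 0.0198) and 0.57 with the offset (adjusted p = 0.00385). ALYREF, the export adaptor, rose by 0.47 (SE 0.0985, adjusted p = 0.00386), with 0.06 (adjusted p = 0.681) under the offset, and its adjusted p was 0.051 without control replicate 1. With the offset MAGOH was at 0.03 (adjusted p = 0.892) and MAGOHB at 0.11 (adjusted p = 0.379).

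U1 and cap binding was the class with the lowest median, -0.18, with 3 of 7 lower and 0 higher, or 1 and 0 with the offset. NCBP1, the large subunit of the nuclear cap-binding complex, was lower at -0.28 (adjusted p = 0.00927), and at -0.09 (adjusted p = 0.452) with the offset. Among the 6 step 1 and 2 factors, mostly DEAH helicases and their partners, CDC40 was lower, at -0.36 (SE 0.0959, adjusted p = 0.0128), and the others lay between -0.23 and -0.06. CDC40 lost its call with the offset (adjusted p = 0.208) and without SS replicate 1, SS replicate 2 or control replicate 1 (0.0535 to 0.125).

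The 144 members were also sorted by length alone, for SS against control, where 18.6% of all tested genes were higher and 21.4% lower. Of the 48 shortest (309 to 1749 bases), 43 were higher and 0 lower, with a median of 0.45. Of these, 34 do not belong to the small SNRP and LSM group, and 29 of the 34 were higher with a median of 0.41. The middle 48 (1764 to 3151 bases) had a median of 0.18, with 16 higher and 2 lower. The longest 48 (3170 to 12723 bases) had a median of -0.08, with 4 higher and 13 lower. With the offset these 3 medians were 0.03, 0.06 and 0.11.

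SS was then set against SS+NAC, a comparison that uses the same SS libraries as the first. Here 64 members were higher in SS and 12 lower, against 19.6% and 23.1% of all tested genes, and 34 and 6 with the length offset, against 7.04% and 7.38%. On the log2(TPM + 1) scale 21 members were higher and 51 lower, against 4.46% and 46.3% of all tested genes. The median of the members on that scale lay 0.14 above that of all tested genes. The offset count of higher members ranged from 6 without SS replicate 2 and 15 without SS replicate 1 to 60 without SS+NAC replicate 1. Without SS replicate 2 the counts were 42 and 4, and without SS replicate 1 6 were lower. The small SNRP and LSM group had a median of 0.59 with 16 of 18 higher, and 0.19 with 6 of 18 under the offset. Of the tested genes in the middle range of this group's lengths, 60.6% were higher without the offset, with a median of 0.38. SNRPG was 0.67 higher in SS than in SS+NAC (SE 0.0905, adjusted p = 0.000476), SNRPB 0.62 (adjusted p = 0.00208) and LSM7 0.75 (adjusted p = 0.0013). The SS libraries stood wholly above SS+NAC in 17 of the 18, against 32.3% of all tested genes, with 38.1% wholly below. LSM8 was at 0.10 (adjusted p = 0.424), and SNRPA1, the other small protein without a call, at 0.25 (adjusted p = 0.0589). With the offset SNRPG was at 0.07, SNRPB at 0.21 and LSM7 at 0.12, none of them called.

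The SR median in SS against SS+NAC was 0.22 with 6 of 12 higher, and the HNRNP median 0.21 with 4 of 7 higher and 1 lower. Fewer HNRNP proteins were called higher when any library was left out, at medians of 0.18 to 0.24. Of all tested genes 19.6% were higher and 23.1% lower, and of those of like length 14.6% and 12.7% for SR and 9.37% and 14.5% for HNRNP. Both medians fell below 0 on the log2(TPM + 1) scale, to -0.09 and -0.13, where the median of all genes was -0.27. There 1 SR protein was higher and 4 lower, and 0 HNRNP proteins higher and 3 lower, against 4.46% and 46.3% of all tested genes. SRSF9 differed by 0.61 (adjusted p = 0.000488) and SRSF5 by 0.42 (adjusted p = 0.00484). HNRNPA1L2 was the HNRNP gene that was lower, at -0.30 (adjusted p = 0.0371). The large factors had a median of 0.00, with 2 higher and 6 lower of 29 (6.90% and 20.7%), against 3.83% and 27.6% of genes of like length. On the log2(TPM + 1) scale 0 were higher and 20 lower, against 4.46% and 46.3% of all tested genes. When a library was left out, the median with TMM scaling ranged from -0.08 to 0.09, and the numbers of calls changed. With the offset the median was 0.17, with 7 higher and 1 lower, so the balance of calls turned. THOC2 was at -0.38 (adjusted p = 0.00181) and SF3B1 at -0.23 (adjusted p = 0.0255). With the offset THOC2 was at 0.00 and SF3B1 at -0.03. The call of SF3B1 was lost without any of 5 libraries, all but SS+NAC replicate 1 (adjusted p 0.073 to 0.119).

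SS+NAC and control were the closest groups. Of the 144 members 0 were higher and 0 lower by edgeR, against 1.36% and 0.657% of all tested genes, and 9 had an unadjusted p under 0.05. DESeq2's Wald test called 0 higher and 1 lower, and the offset likewise 0 and 1, against 1.35% and 0.664% of all tested genes. Without SS+NAC replicate 1 the counts were 1 and 4, or 1 and 14 with the offset. The group medians were -0.11 for the small proteins, 0.02 for SR, -0.01 for HNRNP and -0.09 for the large factors. The lowest adjusted p was that of DHX15, 0.0783, with 147 and 143 CPM in control, 126 and 128 in SS, and 121 and 118 in SS+NAC. DHX15 stayed below control in both treated groups, and it did not differ by the test between SS and SS+NAC (0.08, adjusted p = 0.366).

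Levels per length placed the groups in another order than their changes. In control, the median level was 274 TPM in the HNRNP proteins, 172 in the small SNRP and LSM proteins, 167 in the SR proteins and 63.2 in the large factors. After HNRNPA1, the highest members were SNRPB (937 TPM ± 41.2), HNRNPC (676 ± 5.87), SRSF2 (557 ± 25), HNRNPK (549 ± 3.51) and SNRPD2 (540 ± 7.18; SD, n = 2 each). SRSF2, HNRNPK and SNRPD2 lay within the spread of SRSF2. The highest large factor was SF3B2 at 305 TPM, and PRPF40B was the lowest at 7.98.

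Genes that work beside the spliceosome but are not among the members were read from 3 fixed lists. In the SMN complex and its partners, which load Sm rings onto snRNA, 5 of 13 were higher in SS than control and 0 lower, against 18.6% and 21.4% of all tested genes and 28.1% and 2.28% of those in the middle range of this list's lengths. These were SMN1 (0.48), GEMIN7 (0.46), GEMIN6 (0.42), CLNS1A (0.29) and WDR77 (0.22). SMN1 and SMN2 are nearly identical, and SMN2 was at -0.04, so their separate values depend on the assignment of shared reads. In the minor spliceosome, ZMAT5 (0.49) and ZCRB1 (0.37) of 8 genes were higher and SNRNP48 (-0.23) lower, against 43.3% and 1.49% of genes of like length. Of 7 splicing kinases, PRPF4B (-0.45), SRPK2 (-0.31) and SRPK1 (-0.28), which phosphorylate splicing factors, were lower and 0 higher, against 11.7% and 8.45% of genes of like length, and the CLK kinases CLK1 to CLK4 lay between -0.05 and 0.28. With the length offset, none of the genes named in this paragraph was called except SMN2, which was lower (adjusted p = 0.0108). The medians of the lists were 0.17, 0.25 and -0.05.

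The 25 members outside the class lists include U2SURP and RP9, known splicing factors, and genes such as PET100, CATSPER1 and FRMD4A that have other known roles. In the table, 21 of the 25 have intervals that overlap a listed member. Of the 20 tested, 4 were higher and 5 lower in SS than in control, shares near the 18.6% and 21.4% of all tested genes. PET100, a factor of respiratory complex IV assembly whose interval overlaps XAB2, rose by 0.57 (SE 0.103, adjusted p = 0.00176), and CATSPER1, a sperm calcium channel gene that overlaps SF3B2, by 0.52 (SE 0.0956, adjusted p = 0.00195). FRMD4A, over PRPF18, was at -0.45 (SE 0.079, adjusted p = 0.00168), and U2SURP at -0.42 (SE 0.0772, adjusted p = 0.00206). With the offset CATSPER1 stayed called (0.47, adjusted p = 0.0116), PET100 was at -0.10, FRMD4A at -0.01 and U2SURP at 0.01. Without these 25 genes, 59 of 124 members were higher and 10 lower.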

How the data were processed

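RNA of 6 KHM-5M cultures was selected with oligo(dT) and sequenced as single-end reads. Per the labels and the study's methods, the authors filtered reads with SOAPnuke, aligned them with HISAT2 (version 2.0.4) and Bowtie2 (2.2.5), and estimated expression with RSEM (1.2.12), versions as in the submitters' processing notes. The deposited table gives expected counts per gene, not normalized, with FPKM and TPM values that the authors derived from them. The authors' group means and their own comparison columns were not used. The genome build is not given in the sources used here, and the chromosome accessions in the table are those of GRCh38.

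Expected counts were rounded and tested with edgeR 4.0.16 (R 4.3.3) after its expression filter, with TMM factors of 0.92 to 1.06, a quasi-likelihood fit over all 6 libraries and Benjamini-Hochberg adjustment over 14005 genes. The biological coefficient of variation was 6.74%. A length offset took a lowess trend (span 0.3) of each library's log2 expression on transcript length out of the fit. The fit was also tested on simulated data, but those results are not given here and nothing is concluded from them. Alternatives were Bonferroni adjustment, DESeq2 1.42.0 size factors and Wald test, no filter, at least 10 counts in every library, the compared libraries only, a replicate block and leaving out each library. Limma 3.58.1 on log2(TPM + 1), and leaving out libraries under the offset, were added after seeing the data.

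The members and gene lists were chosen with earlier results of these data known. Genes named were the Sm, LSM, SR and HNRNP members with the 2 largest and the smallest change, SF3B1, PRPF8, SNRNP200, EFTUD2, AQR and THOC2, and in each class the called members with the 2 largest rises and the 2 largest falls. Results for some members that this rule names are not reported here. Others named in the text were chosen after their values were seen. The library totals limit precision most for low members, and errors cover the spread of 2 libraries per group.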

Additional observations from a re-analysis of the deposited data

How the results depend on the processing

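With 2 libraries per group, single calls rest on few values, and members with low counts are the least precise. Of 46 values of named members, the direction and the side of the threshold were unchanged in 45 with DESeq2 size factors, 44 with DESeq2's Wald test, 45 without the filter, 43 with at least 10 counts in every library, 44 with the compared libraries only, 29 on log2(TPM + 1) and 6 with the length offset. With Bonferroni adjustment 8 of the 46 were unchanged. The cause of these changes was not tested.

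The study's methods name the Bonferroni correction for their q value threshold of 0.05. Applied here, Bonferroni adjustment left 0 members higher and 0 lower in SS against control, and 1 and 0 in SS against SS+NAC. With the length offset the counts were 19 and 2, 34 and 6, and 1 lower in SS+NAC against control. The SS against control medians under the offset were 0.17 for the small proteins, 0.13 for SR, 0.18 for HNRNP and 0.07 for the large factors. Against SS+NAC they were 0.19 for the small proteins, 0.27 for HNRNP and 0.17 for the large factors. The offset turned the sign of LSM7 (-0.01), SRSF1 (0.31), PRPF8 (0.38), SNRNP200 (0.32), AQR (0.03), PPIH (-0.05), CDC5L (0.18), PET100 (-0.10) and U2SURP (0.01), and THOC2 against SS+NAC became 0.00.

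On log2(TPM + 1), with all genes shifted by -0.20, -0.27 and 0.04 in the 3 comparisons, 23 members were higher and 48 lower in SS against control, where 5.08% and 37.4% of all genes were, and 21 and 51 against SS+NAC, where 4.46% and 46.3% were. The medians were 0.20, -0.08, -0.14 and -0.35 for small, SR, HNRNP and large in SS against control, and 0.25, -0.09, -0.13 and -0.32 against SS+NAC. In SS+NAC against control they were 0.07 for SR and 0.04 for HNRNP. The sign turned for LSM8 (-0.04, and -0.20 against SS+NAC), HNRNPU (-0.24), EFTUD2 (-0.16) and DHX15 against SS+NAC (-0.25). The HNRNP median was 0.16 with at least 10 counts in every library, and 0.24 against SS+NAC with that filter, with DESeq2 size factors or with the Wald test. The Wald test gave 7 lower against SS+NAC, 1 lower in SS+NAC against control and an HNRNP median of -0.03 there. SRSF1 was 0.01 with the 10-count filter.

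Leaving out each library gave 30 to 70 higher and 6 to 17 lower members in SS against control, 42 to 72 and 4 to 11 against SS+NAC, and 0 to 1 and 0 to 4 in SS+NAC against control. Under the offset these were 3 to 29 and 0 to 5, 6 to 60 and 0 to 7, and 0 to 1 and 0 to 14. The medians in SS against control ranged from 0.39 to 0.57 (small), 0.17 to 0.24 (SR), 0.09 to 0.20 (HNRNP) and -0.14 to -0.05 (large). Against SS+NAC they ranged from 0.50 to 0.67, 0.17 to 0.25, 0.18 to 0.24 and -0.08 to 0.09, and in SS+NAC against control from -0.17 to -0.02, -0.01 to 0.05, -0.03 to 0.01 and -0.13 to 0.00. SRSF1 ranged from -0.09 to 0.04 and PRPF8 from -0.15 to 0.05.

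The groups share replicate numbers, but nothing says that a number marks a shared culture. The correlation of same-numbered deviations was 0.11 for control and SS, -0.11 for control and SS+NAC and -0.17 for SS and SS+NAC. With a replicate block, 52 members were higher and 10 lower in SS against control, 58 and 8 against SS+NAC, and 0 and 0 in SS+NAC against control, and 42 of the 46 named values kept their call.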

Other observations

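An effective length of each gene in each library was worked back from its expected counts, its FPKM and the library total. It can change with the mix of transcripts that RSEM estimated, but it also carries any rounding of FPKM and the library total. It was compared for the 134 members with an FPKM of 5 or more in every library. It differed by more than 5% between SS and control in 6.72% of them, against 9.61% of 7567 genes with the same minimum. PRPF18, a step 2 factor, had 2552 and 2709 bases in control, 2362 and 2115 in SS, and 2755 and 2568 in SS+NAC, so the SS libraries were the shortest. DHX16, a helicase of the activation step, had 3366 and 3347 bases in control, 2942 and 2869 in SS, and 3312 and 3334 in SS+NAC. The SS mean of DHX16 was 13.4% below control by this measure. PRPF38B had 2729 and 2898 bases in control, 3182 and 3179 in SS, and 3117 and 3182 in SS+NAC, so both treated groups were longer. Neither the isoforms behind these lengths nor a test of them was available from gene-level values, and these genes were chosen after their values were seen.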
